A study of Mus musculus with 18 samples.

Results

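The response of shNdufa5_1 cells to a change of medium was set against the response of control cells, gene by gene. For each gene the difference of responses was (shNdufa5_1 in SCM minus shNdufa5_1 in PCM) minus (shControl in SCM minus shControl in PCM), on log2(FPKM + 1), where FPKM is the number of fragments per kilobase of gene and per unit of sequencing depth. It was computed for the 11084 of 54532 genes in the deposited table whose mean FPKM was at least 1 over all 18 libraries. This filter takes no account of group, and no measured response was used to choose the genes. A difference below 0 means a smaller rise or a larger fall with shNdufa5_1 than in the control.

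All cells were KPCA.B, a mouse line that the labels describe as high-grade serous ovarian cancer, and the measurement was sequencing of polyadenylated RNA. The shControl cells carried a control short hairpin RNA and are labelled Ndufa5 wild type. The shNdufa5_1 cells carried the first of 2 hairpins against Ndufa5 and are labelled Ndufa5 knockdown 1. Both genotypes were kept in equal volumes of a conditioned medium and of unused growth medium, which was high-glucose DMEM with 4% heat-inactivated serum, 2 ng/mL of EGF and the insulin, transferrin and selenium supplement ITS-G. PCM was conditioned by proliferating cells given DMF, the drug's vehicle, and SCM by cells made senescent with cisplatin, a platinum drug that crosslinks DNA. These 4 groups held 3 libraries each, 12 in all. The sources used here do not state whether each line is 1 clone or whether replicate libraries were grown as separate cultures. The p-values therefore reflect the spread among these libraries alone, and that spread may be technical.

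Ndufa5 encodes an accessory subunit of complex I, which passes electrons from NADH into the respiratory chain. Senescent cells have stopped dividing but secrete cytokines, growth factors and proteases that reach neighbouring cells. Cytokines and growth factors can move interferon, chemokine and early growth response genes in cells that receive them. Which signals in SCM acted on these cells was not tested.

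The libraries of the 4 groups held 15.2 to 38.9 M fragments (M, mega), read from the steps of the low FPKM values. Among 10 epithelial markers, the keratin genes Krt7, Krt8, Krt18 and Krt19 had group means of 127 to 949 FPKM and Msln of 42.0 to 68.4, while Epcam and Cdh1 had group means of at most 0.344 and 1.31, and Wt1 and Muc16 were listed at 0. Markers of other cell types were low. The summed FPKM of 9 fibroblast markers was 2.30 to 2.81 in shControl PCM, 3.61 to 4.05 in shControl SCM, 1.47 to 2.49 in shNdufa5_1 PCM and 2.36 to 2.89 in shNdufa5_1 SCM. Of 10 leukocyte markers, Cd14 made up nearly all of the sum of 5.34 to 11.3, and Cd3e, Itgam and Adgre1 were listed at 0. Plvap made up nearly all of the sum of 2.25 to 8.48 of 7 endothelial markers.

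The target gene was low in every shNdufa5_1 library. Ndufa5 (ENSMUSG00000023089, GRCm38 chromosome 6, 24518666 to 24528013, minus strand) had 15.2, 19.0 and 22.1 FPKM in shControl PCM and 22.3, 26.2 and 20.9 in shControl SCM. With shNdufa5_1 it had 6.23, 6.39 and 6.85 in PCM and 6.46, 6.78 and 6.23 in SCM. The groups of the 2 genotypes did not overlap in either medium, at 34.6% of the control mean in PCM and 28.05% in SCM (exact two-sided permutation p = 0.1 in each, the smallest that 3 against 3 libraries allow). Its own difference of responses was -0.30 (95% interval -0.66 to 0.07, limma adjusted p = 0.22).

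The responses of the 2 genotypes differed for many genes, most of which responded less with shNdufa5_1. By limma with Benjamini-Hochberg adjustment over all genes tested, the difference of responses was called at an adjusted p under 0.05 for 2900 of 11084 genes (26.2%), 1186 above 0 (10.7%) and 1714 below 0 (15.5%). The medium itself changed 6863 genes in shControl (61.9%; 31.7% rose and 30.2% fell) and 4687 with shNdufa5_1 (42.3%; 22.5% rose and 19.8% fell). A response was termed lost where the control response was called, that of shNdufa5_1 was not, and the difference was called against the control's direction. This held for 1310 genes, 11.8% of those tested, 695 of which rose and 615 of which fell in the control. A response was termed weakened where both were called the same way and the difference was called against it, which held for 1090 genes (9.83%), 781 rises and 309 falls. A response was termed kept where both were called the same way and no difference was called, which does not show that the 2 are equal. This held for 2468 genes (22.3%), 1110 rises and 1358 falls. Responses called in opposite directions were termed reversed (144 genes, 1.3%), those called the same way and larger with shNdufa5_1 enlarged (59 genes, 0.532%), and those called with shNdufa5_1 alone with a called difference gained (251 genes, 2.26%). A further 1792 genes changed in the control and did not pass with shNdufa5_1, but their difference was not called, so they are in none of these classes.

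**Figure D1:**
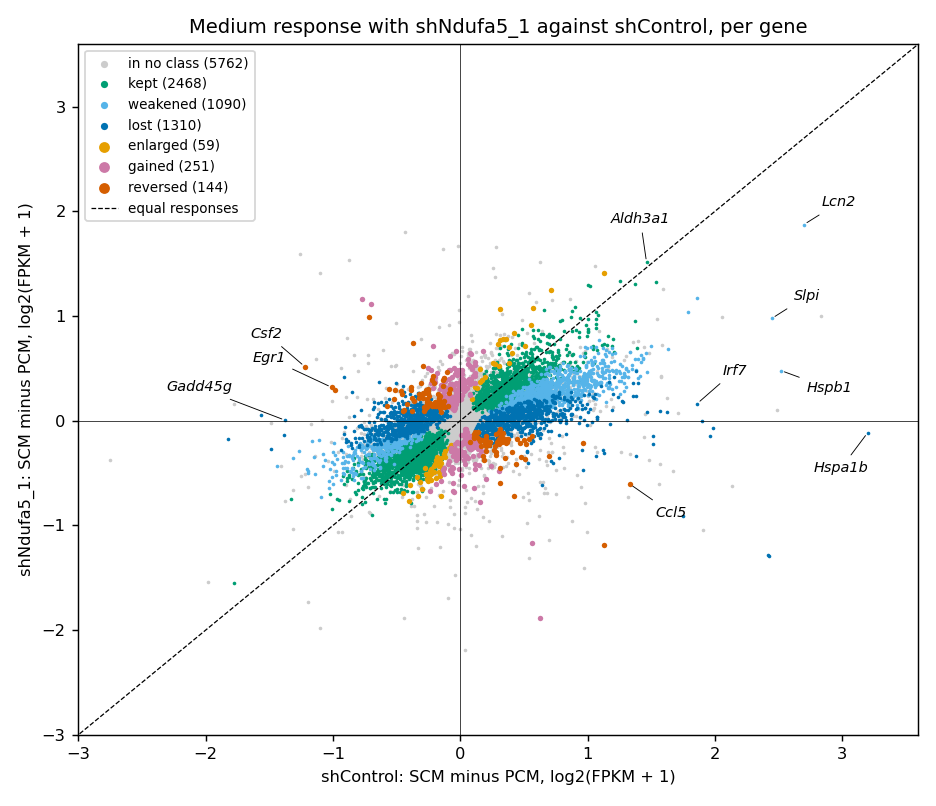
Each point is 1 of 11084 genes, with its SCM minus PCM difference in shControl on the x axis and with shNdufa5_1 on the y axis, both in log2(FPKM + 1). Colours give the class, and the dashed line marks equal responses. Lost genes lie along the horizontal axis, kept genes along the dashed line, and reversed genes in the upper left and lower right quadrants.

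The median gene is set equal between libraries in the deposited values, and the sign of many small differences rests on that scale. The median difference of responses over all genes was -0.01 as deposited, 0.16 when scaled by the recovered library totals, 0.46 with equal FPKM sums and 0.26 with equal sums leaving out Gm23935, a feature that resembles ribosomal RNA. The deposited FPKM sum was 290242 to 303782 in shControl PCM and 437859 to 484520 in shControl SCM. With shNdufa5_1 the media overlapped, at 298724 to 368936 in PCM and 318823 to 348404 in SCM. Gm23935 had 14888.7 to 26578.5 FPKM in shControl PCM and 71194.7 to 105411 in shControl SCM. With shNdufa5_1 it had 31614 to 99865.7 in PCM and 29578.3 to 59574.1 in SCM. The part of these sums in the larger control response was not tested beyond the rescaling. The called genes split into 3316 above and 772 below 0 with library totals, 6988 and 85 with equal sums, 4850 and 472 with equal sums without Gm23935, and 1424 and 988 with quantile normalization. The lost class held 2012, 4642, 2473 and 1138 genes on these scales. Its membership changed as well: 61.1%, 56.5%, 42.4% and 64.8% of the 1310 lost genes stayed lost. Of the kept genes, 52.9%, 9.4%, 26.8% and 79.7% stayed in their class. Of the gained genes, 15.9%, 1.2%, 3.59% and 57.8% did so.

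Lost rises had a median log2 difference between media of 0.46 in the control and 0.03 with shNdufa5_1, and lost falls had medians of -0.39 and -0.01. Kept rises had medians of 0.39 and 0.33 and kept falls of -0.39 and -0.35. Among the 291 genes that changed at least 2-fold in the control, the response with shNdufa5_1 was a median of 37.1% of the control's on the log2 scale, and 20 reached 2-fold. Choosing genes by a large control response in itself favours a smaller response with shNdufa5_1. No matching set chosen by the shNdufa5_1 response was examined, so these values are a description. Of the 254 rises in this set, 142 were weakened, 42 lost, 29 kept, 2 reversed, 1 enlarged and 38 not separated. Of the 37 falls, 20 were weakened, 5 lost, 4 kept, 2 reversed and 6 not separated.

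The lost rises were led by 1 heat shock gene. Hspa1b, an inducible Hsp70 chaperone that refolds damaged proteins, had 1.59, 1.24 and 0.985 FPKM in shControl PCM and 21.2, 19.4 and 18.7 in shControl SCM. With shNdufa5_1 it had 1.43, 2.38 and 1.26 in PCM and 1.54, 1.74 and 1.10 in SCM. The 3 control libraries in SCM stood alone, and the other 9 lay between 0.985 and 2.38. The difference of responses was -3.31 ± 0.23 (SE, limma adjusted p = 1.14e-07), the largest in size among lost genes with a gene symbol of their own whose control libraries did not overlap. Over all genes the libraries of both media did not overlap for 66.1% in the control and 52.2% with shNdufa5_1. Fragments of Hspa1b may be shared with the near-identical copy Hspa1a. Hspb1, a small heat shock protein that holds unfolded proteins in solution, was weakened, from a rise of 2.52 ± 0.19 in the control to 0.48 ± 0.19 (limma adjusted p = 0.0487). Its FPKM was 5.90, 6.04 and 5.72 in shControl PCM, 37.4, 35.4 and 43.1 in shControl SCM, 7.495, 9.96 and 8.10 in shNdufa5_1 PCM and 12.01, 9.76 and 15.4 in shNdufa5_1 SCM. The 2 media overlapped with shNdufa5_1 for this gene, at 9.96 in PCM and 9.76 in SCM. Its small response with shNdufa5_1 lay at the threshold: Hspb1 was weakened in 10 of 30 settings and lost in the other 20, among them those without any 1 shControl library, without replicate 1 or 3 of shNdufa5_1 in PCM or in SCM, and without any 1 shNdufa5_2 library in PCM.

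Heat shock genes are classically driven by HSF1 through inverted repeats of GAA upstream of the start. The promoters of the pair that led the list are shown because their control response was the largest of the list and was the most reduced. The windows cover the 150 bases before the start (RefSeq, GRCm38.p6), at chr17:34959239-34959388 on the minus strand for Hspa1b and chr5:135887769-135887918 on the plus strand for Hspb1. Capitals mark GAANNTTC, a motif that reads the same on both strands.
Hspa1b: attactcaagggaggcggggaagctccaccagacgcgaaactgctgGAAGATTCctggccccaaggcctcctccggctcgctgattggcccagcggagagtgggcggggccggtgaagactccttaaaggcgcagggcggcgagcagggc
Hspb1: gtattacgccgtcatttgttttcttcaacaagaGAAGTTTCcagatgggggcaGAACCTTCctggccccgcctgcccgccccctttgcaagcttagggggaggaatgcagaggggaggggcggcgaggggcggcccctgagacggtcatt
Over the window of 250 bases before to 50 after the start, 9 of the 14 tested heat shock genes with a promoter in the table held this motif, as did 7.86% of all 32851 promoters. Of the 9, 3 were lost (Hspa1b, Bag3 and Hspe1), 2 weakened (Hspb1 and Fkbp4), 2 kept (Hspd1 and Chordc1) and 1 reversed (Hsph1). Dnaja1, the other gene with it, was in no class.

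The heat shock list held mainly cytosolic chaperone genes, but also Hspd1 and Hspe1, whose products work in mitochondria. Of its 18 tested genes, 12 had a difference called below 0 (background 15.5%) and none above, with a median of -0.38 against -0.01 over all genes. The median turned to 0.16 with equal FPKM sums, where that of all genes was 0.46 and the list lay at -0.30 relative to it, and was below 0 on the other scales. There were 6 lost members, 5 weakened, 3 kept and 1 reversed (11.8%, 9.83%, 22.3% and 1.3% of all genes). The lens and muscle chaperone Cryab (1.50 in the control, 0.71 with shNdufa5_1) and the constitutive Hsp70 Hspa8 (1.15 and 0.67) were weakened. The kept members were Chordc1, Hsp90aa1 and Hspd1, which fell in both genotypes, by 0.55, 0.24 and 0.27 in the control and by 0.49, 0.37 and 0.24 with shNdufa5_1. These 3 and the other members outside the naming rule are given for completeness of the list, after their values were seen.

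Interferon-stimulated genes were among the lost rises. These genes answer type I interferon through a complex of STAT factors. Irf7, a transcription factor that amplifies interferon production, had 1.34, 1.44 and 1.75 FPKM in shControl PCM and 7.29, 8.21 and 8.89 in shControl SCM. With shNdufa5_1 it had 1.14, 1.21 and 1.20 in PCM and 1.70, 1.32 and 1.33 in SCM. The 6 shNdufa5_1 libraries all lay within or below the range of shControl PCM. The difference of responses was -1.70 ± 0.14 (limma adjusted p = 4.64e-07). Isg15, a ubiquitin-like protein attached to others during the interferon response, rose in the control from 4.40, 5.004 and 5.01 FPKM to 15.5, 20 and 13.7. With shNdufa5_1 it had 3.28, 8.39 and 3.87 in PCM and 5.85, 3.61 and 6.57 in SCM, with both media overlapping (difference of responses -1.48 ± 0.35, adjusted p = 0.00569). The chemokine gene Cxcl10, an attractant of T cells, was lost as well, at 0.77 in the control and -0.36 with shNdufa5_1 (95% interval -0.75 to 0.04).

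Of 22 tested interferon-stimulated genes, 14 had a difference called below 0 (background 15.5%) and none above, with a median of -0.60 that stayed between -0.61 and -0.23 on every scale tried. There were 9 lost members, 4 weakened, 3 kept and 1 reversed (11.8%, 9.83%, 22.3% and 1.3% of all genes). Bst2, which tethers budding virus to the cell surface, was weakened: 43.4, 43.6 and 45.3 FPKM became 133, 122 and 117 in the control, against 43.6, 44.1 and 41.5 becoming 56.4, 68.4 and 54.9 with shNdufa5_1. The genotypes overlapped in PCM and separated in SCM. Ifitm3, a membrane protein that hinders viral entry, rose by 1.30 in the control and by 0.32 with shNdufa5_1. Ifit1, which binds viral RNA, was the reversed member. It rose in the control from 1.01, 0.9746 and 0.938 FPKM to 1.32, 1.93 and 1.72, and fell with shNdufa5_1 from 2.11, 2.36 and 2.09 to 1.11, 0.920 and 0.792. The leukocyte markers Cd3e, Itgam and Adgre1 were at 0 in these libraries.

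The promoters of Isg15, Bst2, Ifit1 and Cxcl10 are shown because these 4 genes share the interferon-stimulated response element yet fell into 3 classes. Capitals mark GAAA followed by any 2 bases and a second GAAA, or the reverse complement of this motif. Of the windows, 3 cover the 150 bases before the start (RefSeq, GRCm38.p6): chr4:156200819-156200968 on the minus strand for Isg15, chr8:71537473-71537622 on the minus strand for Bst2 and chr19:34640739-34640888 on the plus strand for Ifit1. That of Cxcl10, chr5:92348990-92349139 on the minus strand, covers bases -250 to -101.
Isg15: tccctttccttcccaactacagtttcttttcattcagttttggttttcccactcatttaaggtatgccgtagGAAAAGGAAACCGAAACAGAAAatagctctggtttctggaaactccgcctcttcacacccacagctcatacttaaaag
Bst2: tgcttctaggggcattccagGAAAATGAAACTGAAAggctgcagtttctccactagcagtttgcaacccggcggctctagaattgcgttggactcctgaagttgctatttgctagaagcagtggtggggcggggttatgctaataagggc
Ifit1: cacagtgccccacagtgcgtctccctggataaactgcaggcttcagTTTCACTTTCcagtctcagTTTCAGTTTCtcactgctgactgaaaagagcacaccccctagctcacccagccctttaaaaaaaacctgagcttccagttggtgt
Cxcl10: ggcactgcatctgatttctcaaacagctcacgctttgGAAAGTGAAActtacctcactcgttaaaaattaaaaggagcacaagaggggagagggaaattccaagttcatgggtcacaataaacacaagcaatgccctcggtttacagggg
Overlapping copies merge into longer runs, 3 in Isg15 and 2 in Bst2. Of the 19 tested interferon-stimulated genes with a promoter in the table, 10 held the motif on either strand in the window of 250 bases before to 50 after the start, as did 3.44% of all promoters. They comprised 2 of the 7 lost genes with a promoter, all 3 such weakened genes, 2 of 3 kept genes and the reversed gene. Ifit3 and Ddx58, the other genes with it, were in no class.

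Gdf15, a secreted stress cytokine, was another lost rise. It had 11.6, 9.43 and 8.19 FPKM in shControl PCM and 24.4, 25.0 and 26.9 in shControl SCM, and 6.97, 9.48 and 7.14 in PCM and 7.45, 7.55 and 8.49 in SCM with shNdufa5_1. The difference of responses was -1.31 ± 0.18 (limma adjusted p = 7.88e-05). Gdf15 is counted among targets of the integrated stress response, and the 28 tested members of that list were spread over the classes. There were 6 lost, 7 weakened and 8 kept members (11.8%, 9.83% and 22.3% of all genes). Of the list's differences, 12 were called below and 5 above 0 (background 15.5% and 10.7%). The amino acid synthesis genes Asns, Mthfd2 and Psat1 were kept, and the serine synthesis gene Phgdh was weakened (0.95 and 0.29). The list's median difference was -0.11 and turned above 0 with quantile normalization, library totals and both equal-sum scales. The nuclear RNA Malat1 was lost at -1.40 and became reversed with quantile normalization, library totals and both equal-sum scales, and without replicate 3 of shNdufa5_1 in PCM, replicate 1 of shNdufa5_1 in SCM or replicate 1 of shNdufa5_2 in SCM. Lars2, for the mitochondrial leucyl-tRNA synthetase, was lost at -1.91 ± 0.44, but it is uncertain as a measure of that gene: with shNdufa5_1 in PCM it had 67.2, 125 and 51.9 FPKM while Gm23935 had 42110, 99866 and 31614.

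**Figure D2:**
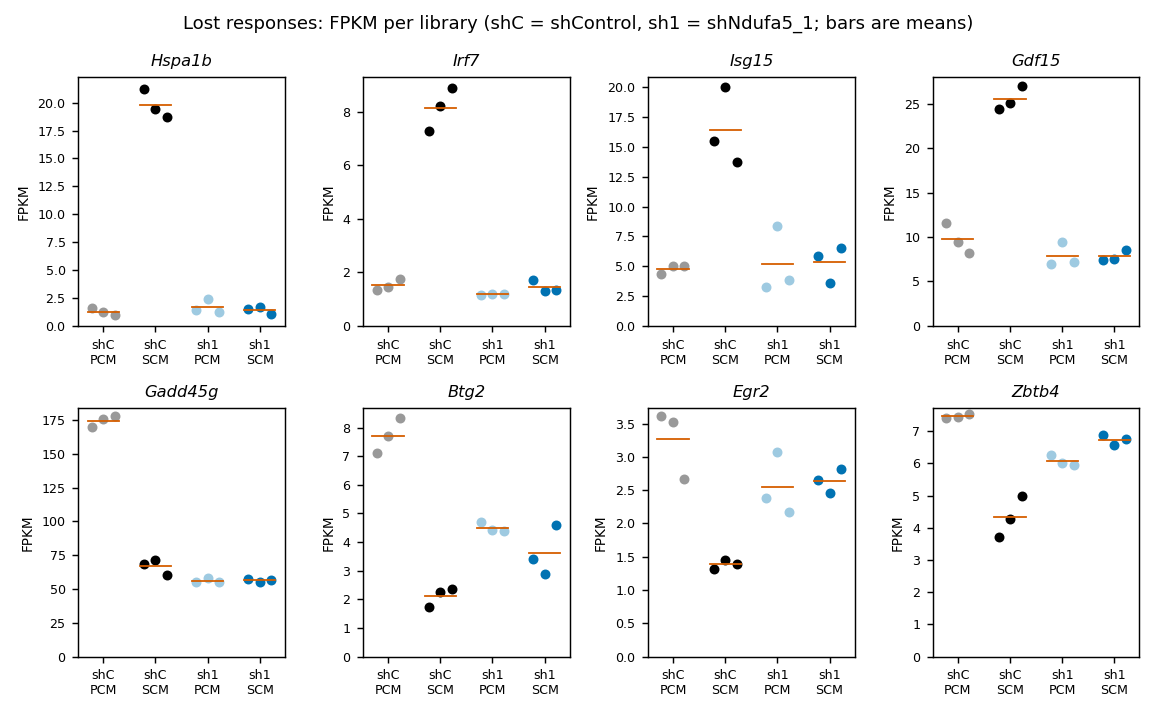
FPKM of 8 genes with a lost response in each of the 12 libraries. Points are libraries, bars are group means (n = 3), and each y axis starts at 0. In the top row the control libraries in SCM stand above all others, and in the bottom row they are low while shNdufa5_1 libraries of both media lie close together.

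Lost falls were led by Gadd45g, a stress-induced growth arrest gene. It fell in the control from 169, 176 and 178 FPKM to 68.3, 71.6 and 60.1. With shNdufa5_1 it had 54.9, 58.5 and 55.6 in PCM and 57.2, 55.5 and 56.9 in SCM. The shNdufa5_1 libraries were under the control's SCM libraries in both media, and the difference of responses was 1.38 ± 0.09 (limma adjusted p = 5.24e-08). Btg2, an antiproliferative gene, had 7.11, 7.70 and 8.35 FPKM in shControl PCM and 1.74, 2.27 and 2.36 in SCM. With shNdufa5_1 it had 4.69, 4.44 and 4.40 in PCM and 3.42, 2.88 and 4.603 in SCM, between the control's groups and overlapping. Without replicate 3 of shNdufa5_1 in SCM its class was weakened. Egr2, a zinc finger factor of the early growth response, was lost from a control fall of 0.83 to 0.05 ± 0.13 with shNdufa5_1. The transcriptional repressor gene Zbtb4 fell from 7.41, 7.45 and 7.52 FPKM to 3.71, 4.28 and 4.99 in the control, and had 6.26, 6 and 5.94 in PCM and 6.89, 6.58 and 6.75 in SCM with shNdufa5_1. Bag5 (0.84) and Rfesd (0.88) were further lost falls that stayed in that class in every setting tried, whereas Camkmt and Slc31a2 stayed in it in 20 of 29.

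A lost response can go with a level that shNdufa5_1 cells already had in PCM or with a level that they lacked in SCM. Both patterns were counted from the difference of the 2 genotypes in each medium, which uses the same libraries as the classes and so is a description. Of the 695 lost rises, 451 (64.9%) were lower than the control in SCM without being higher in PCM, 166 (23.9%) were already higher in PCM without being lower in SCM, 72 were both and 6 neither. Hspa1b (0.23 in PCM, -3.08 in SCM), Irf7 (-0.20 and -1.90) and Gdf15 (-0.27 and -1.58) were of the first kind. Of the 615 lost falls, 319 (51.9%) were higher than the control in SCM without being lower in PCM. Another 235 (38.2%) were already lower in PCM without being higher in SCM. Gadd45g was of the second kind, with a genotype difference of -1.61 in PCM and -0.23 in SCM. Being of the first kind does not mean equal levels in PCM: 210 lost rises were called lower than the control there, and 108 lost falls higher. The first kind was not particular to lost responses. It also held for 71.2% of weakened rises, 67.3% of weakened falls, 48.65% of kept rises and 53.1% of kept falls. Across all genes the genotypes differed in PCM for 52.7% and in SCM for 59.8%.

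**Figure D3:**
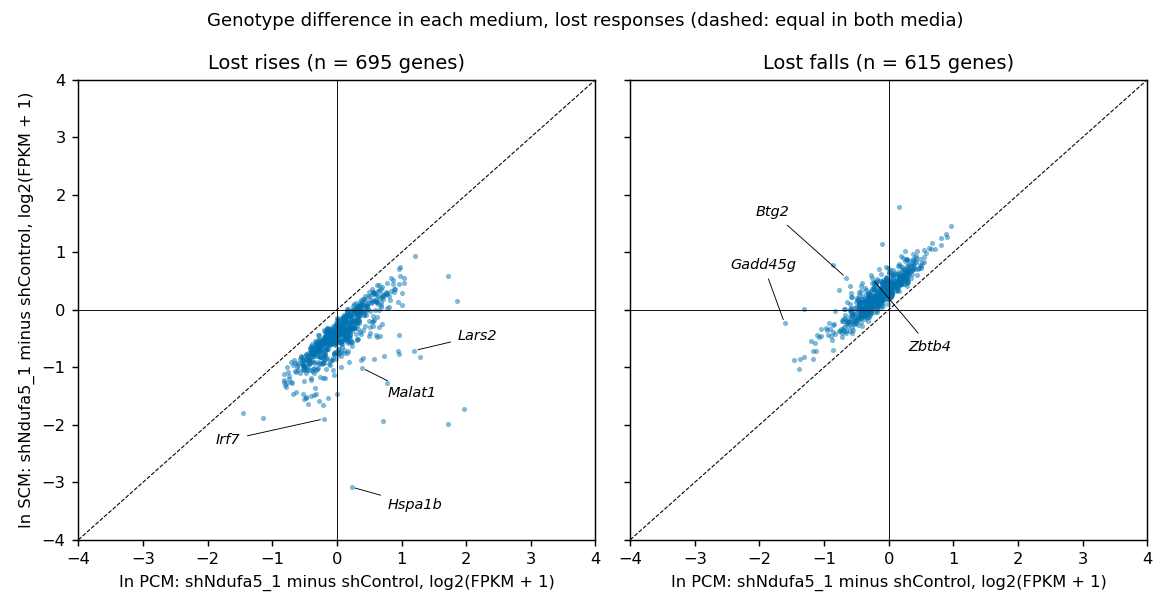
Difference between shNdufa5_1 and shControl in PCM (x axis) and in SCM (y axis), in log2(FPKM + 1), for the 695 lost rises and the 615 lost falls. Points are genes, and the dashed line marks an equal difference in both media. Lost rises lie below the line and lost falls above it by construction, and most lost rises spread downward around a PCM difference near 0 (median 0.03 in PCM, -0.44 in SCM).

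Kept rises crossed several functions. Aldh3a1, an aldehyde dehydrogenase, had 10.5, 9.08 and 9.004 FPKM in shControl PCM, 27.5, 28.4 and 28.1 in shControl SCM, 8.75, 8.69 and 7.94 in shNdufa5_1 PCM and 28.0, 25.0 and 24.9 in shNdufa5_1 SCM. The libraries of the 2 genotypes lay close in each medium, and the difference of responses was 0.05 (95% interval -0.21 to 0.31). Il33, an alarmin cytokine, had the same size of response at another level. It rose from 4.39, 5.06 and 3.58 FPKM to 10.3, 12.6 and 12.3 in the control and from 14.3, 12.7 and 16.01 to 38.8, 35.7 and 38.6 with shNdufa5_1. All shNdufa5_1 libraries in PCM were above the control's in SCM, and the difference of responses was 0.08 (-0.22 to 0.39). Ccl7, a monocyte-attracting chemokine gene, rose by 1.00 in the control and 1.30 with shNdufa5_1, and the glycolytic enzyme gene Aldoc by 1.06 and 1.04.

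Cholesterol synthesis was the list with the largest share kept among lists of at least 20 tested genes. This limit leaves out a shorter list, the SR splicing factor genes, with 7 of 14 kept. Of 25 tested cholesterol synthesis genes, 12 were kept, 5 weakened, 3 enlarged and 1 lost (22.3%, 9.83%, 0.532% and 11.8% of all genes). Their median response was 0.49 in the control and 0.52 with shNdufa5_1. A difference was called above 0 for 4 members (background 10.7%) and below 0 for 5 (background 15.5%). Mvd, of the mevalonate pathway, rose from 10.7, 9.52 and 10.2 FPKM to 22.9, 22.5 and 19.6 in the control and from 10.9, 12.1 and 10.7 to 29.0, 28.7 and 29.0 with shNdufa5_1. The shNdufa5_1 libraries were the higher ones in SCM, and the difference of 0.27 (0.06 to 0.47, limma adjusted p = 0.0528) lay just outside the threshold. Mvd became enlarged in 10 of 30 settings. Acat2, of the pathway's first step, rose by 1.01 and 0.98. Cyp51 (0.30 and 0.73), a demethylase of the pathway, and the sterol carrier gene Stard4 (0.12 and 0.32) were among the enlarged members and are named after their values were seen. Cyp51 was enlarged in 27 of 30 settings but Stard4 in 8 of 30, and leaving out any 1 shControl library, among others, moved Stard4 to another class or to none. The sterol element TCACNCCAC was found on either strand in 1 of 17 promoters of tested members, that of Hmgcs1, and in 1.24% of all promoters.

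Kept falls included the architectural nuclear RNA Neat1, which fell from 11.9, 11.9 and 12.8 FPKM to 6.98, 6.26 and 6.97 in the control and from 31.1, 30.3 and 29.4 to 16.3, 18.3 and 16.6 with shNdufa5_1. Both genotypes fell by like amounts (-0.77 and -0.79) from unequal levels. Nop58, of the box C/D ribonucleoproteins that guide RNA methylation, fell by 0.77 and 0.73, and Gtf2h1, a subunit of the repair and transcription factor TFIIH, by 0.95 and 0.76. Of 14 tested splicing factor genes of the SR group, 7 were kept, 3 weakened and 1 lost (22.3%, 9.83% and 11.8% of all genes). Srsf3, which regulates its own splicing, was weakened, from 57.5, 55.9 and 57.3 FPKM to 19.9, 20.6 and 20.46 in the control against 40.0, 36.2 and 38.3 to 27.0, 28.4 and 28.4 with shNdufa5_1.

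Reversed responses included signalling molecules. Ccl5, a chemokine that attracts T cells and monocytes, had 4.64, 6.34 and 4.29 FPKM in shControl PCM and 13.5, 14.8 and 14.3 in shControl SCM, and 2.58, 3.30 and 2.54 in PCM and 1.84, 1.40 and 1.28 in SCM with shNdufa5_1. The 2 genotypes moved apart in SCM. Reversed genes were named only where the media did not overlap in either genotype, so that trait follows from the rule. Over all genes it held for 66.1% in the control and 52.2% with shNdufa5_1. The responses of Ccl5 were 1.33 ± 0.17 and -0.60 ± 0.17. Csf2, the gene of the growth factor GM-CSF, moved the other way. It fell in the control from 27.8, 26.9 and 25.6 FPKM to 10.5, 11.4 and 10.8 and rose with shNdufa5_1 from 14.2, 9.67 and 16.9 to 20.8, 17.7 and 19.9. Its libraries did not overlap in either genotype, as the naming rule required, and the difference was 1.74 ± 0.19 (limma adjusted p = 6.86e-06). With equal FPKM sums Csf2 was lost in place of reversed, while Ccl5 was reversed in all 30 settings.

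The early growth response factors Egr1 and Egr3 were reversed too. Egr1 fell from 43.9, 41.8 and 42.7 FPKM to 19.9, 21.7 and 20.6 in the control and rose from 35.5, 34.8 and 35.4 to 44.5, 45.2 and 43.0 with shNdufa5_1. The spread within each group was small, and the difference of responses was 1.33 ± 0.05 (limma adjusted p = 1.5e-09), reversed in all 30 settings. Egr3 fell from 1.92, 1.63 and 1.89 FPKM to 0.911, 0.888 and 0.936 in the control and rose from 2.54, 2.92 and 2.57 to 3.56, 3.64 and 3.42 with shNdufa5_1. Pak1, a kinase downstream of small GTPases, was reversed at responses of -0.31 and 0.36 in all 30 settings. Most of the 144 reversed genes had small responses on each side, with medians of 0.30 and -0.20 for the 67 that rose in the control and of -0.26 and 0.22 for the 77 that fell.

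**Figure D4:**
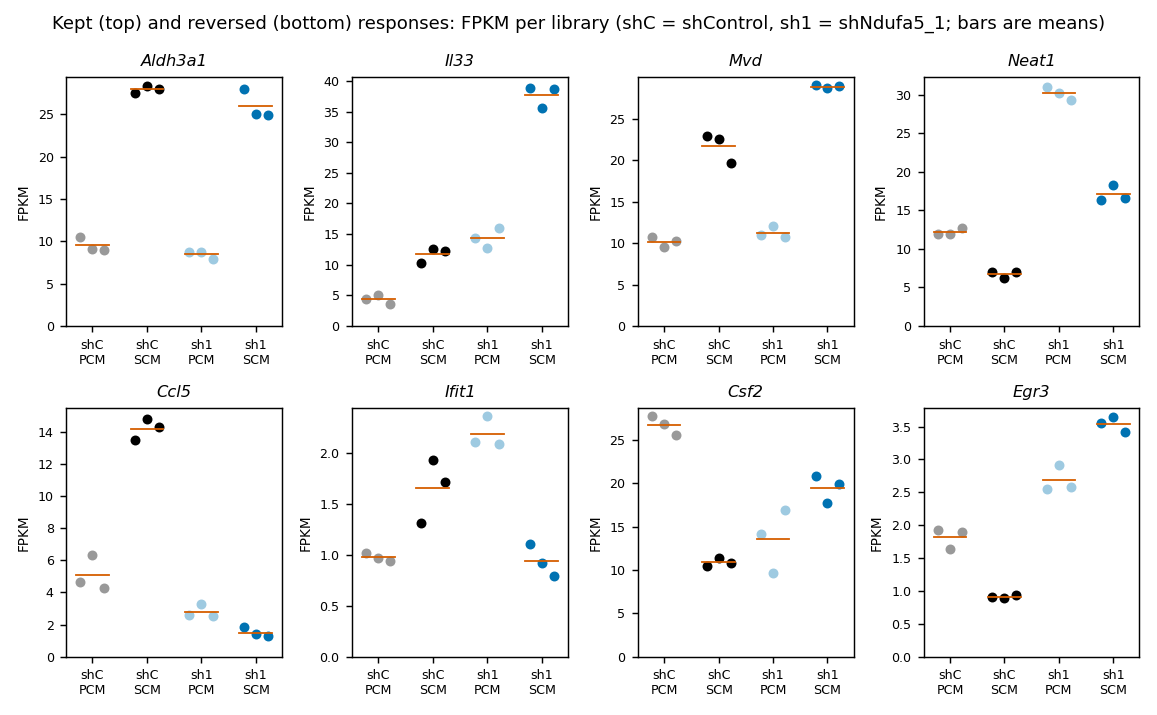
FPKM of 4 genes with a kept response (top) and 4 with a reversed response (bottom) in each of the 12 libraries. Points are libraries, bars are group means (n = 3), and each y axis starts at 0. The top row shows the same direction in both genotypes, at a higher level with shNdufa5_1 for Il33 and Neat1, and the bottom row opposite directions.

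Immediate early genes, which answer growth factors within minutes, were among the few lists whose differences lay above 0. Of 27 tested, 12 had a difference called above 0 (background 10.7%) and 2 below, with a median of 0.27 that was above 0 on every scale tried. There were 6 lost members, 4 weakened, 6 kept, 3 reversed and 1 gained (11.8%, 9.83%, 22.3%, 1.3% and 2.26% of all genes). Jun, a subunit of AP-1, was weakened: 36.4, 36.1 and 33.4 FPKM became 16.8, 17.9 and 17.1 in the control, and 14.8, 14.4 and 13.6 became 11.3, 12.6 and 12.7 with shNdufa5_1. Its shNdufa5_1 libraries in PCM were already under the control's in SCM. Myc fell by 0.85 in the control and by 0.35 with shNdufa5_1. In the EGF family, the difference was called above 0 for 4 of 6 tested genes (background 10.7%). The ligand genes Areg and Nrg1 and the receptor gene Egfr were lost and the ligand gene Hbegf was weakened (11.8% and 9.83% of all genes). These 4 genes fell in the control, so a difference above 0 here means a weaker fall or none with shNdufa5_1. Nrg1 was lost in 20 of 29 settings, and its difference was not called without replicate 1 or 2 of shControl in PCM, replicate 1 of shControl in SCM, or replicate 2 of shNdufa5_1 in PCM or in SCM. Hbegf was lost without replicate 2 of shNdufa5_1 in either medium. EGF was present in both media. Of 18 tested inflammatory and NF-kB genes, 7 were kept, 4 reversed, 3 lost and 1 weakened (22.3%, 1.3%, 11.8% and 9.83% of all genes). Of their differences, 6 were called above and 2 below 0 (background 10.7% and 15.5%), so the lost and lower counts lay near those of all genes. The reversed members beside Ccl5 and Csf2, named after their values were seen, were the cytokine gene Lif (-0.30 and 0.53) and the NF-kB inhibitor gene Nfkbia (-0.32 and 0.22). Lif was gained without replicate 1 of shControl in PCM and without replicate 1 or 2 of shControl in SCM.

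Cytosolic ribosomal protein genes were nearly all weakened, and respiratory chain genes were divided between weakened, lost and kept. Over all genes, 9.83% were weakened, 11.8% lost and 22.3% kept, with 15.5% of differences called below and 10.7% above 0. Of 43 tested cytosolic ribosomal protein genes, 41 were weakened and 1 kept, with a median response of 1.04 in the control and 0.38 with shNdufa5_1 and a median difference of -0.62 (-0.49 to -0.07 on the other scales). Rplp2, of the ribosomal stalk, had 226, 261 and 238 FPKM in shControl PCM and 584, 594 and 590 in SCM, against 222, 220 and 210 and 311, 298 and 288 with shNdufa5_1. The genotypes were near each other in PCM and apart in SCM. Ribosomal protein genes share fragments with processed pseudogenes. Of 34 tested nuclear genes for complex I subunits other than Ndufa5, 17 were weakened, 6 lost and 3 kept, and 23 differences were called below 0 and none above. Ndufb10 was lost, from 46.9, 45.3 and 53.8 FPKM to 93.1, 99.4 and 92.5 in the control, with 50.6, 47.4 and 45.9 in PCM and 49.8, 56.7 and 49.9 in SCM with shNdufa5_1. Ndufa11 was weakened (0.98 and 0.40). Of 33 genes for complexes III to V, 14 were weakened, 6 lost and 6 kept, with Atp5e of the ATP synthase at 1.25 and 0.38. The medians of -0.40 for complex I and -0.48 for complexes III to V turned to 0.14 and 0.05 with equal FPKM sums and were below 0 on the other scales. Equal sums moved the median of all genes to 0.46, and relative to it the lists lay at -0.31 and -0.41.

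Of 5 tested secreted defence genes, 3 were weakened and 2 kept (9.83% and 22.3% of all genes). Lcn2, which encodes an iron-scavenging protein of innate defence, rose from 5.45, 5.83 and 5.35 FPKM to 42.9, 40.1 and 41.6 in the control and from 1.80, 2.30 and 1.84 to 10.5, 10.2 and 9.09 with shNdufa5_1. It was weakened on the log scale (2.70 ± 0.08 against 1.88 ± 0.08) and lower with shNdufa5_1 in both media. Slpi, a protease inhibitor, was weakened from 2.45 to 0.98. Ftl1, the ferritin light chain gene, was weakened from 1.15 to 0.18, and the mitochondrial protease gene Lonp1 was lost (0.52 and -0.05). Lonp1 was lost in 25 of 30 settings and not with GC and length trends removed or on any other scale.

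**Figure D5:**
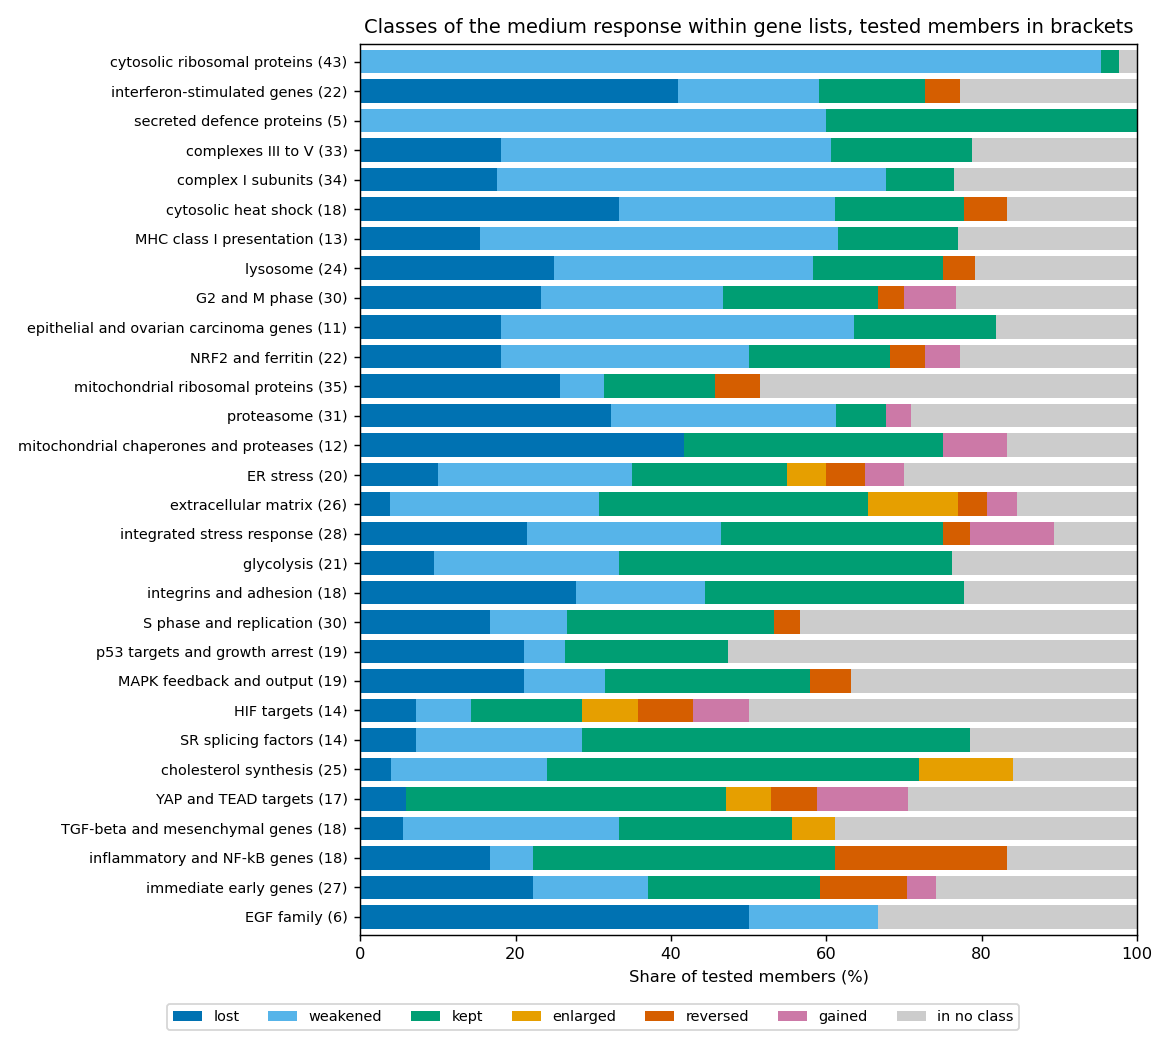
Share of the tested members of each gene list in each class, in percent, for the 30 lists with at least 5 tested members (number in brackets), ordered by their median difference of responses with the lowest at the top. Cytosolic ribosomal proteins are nearly all weakened, of 22 interferon-stimulated genes 9 are lost and 4 weakened, and 12 of 25 cholesterol synthesis genes are kept. Over all genes, 11.8% are lost, 9.83% weakened and 22.3% kept.

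Enlarged and gained responses were few. Col6a1, a collagen VI chain, rose from 4.05, 4.20 and 4.42 FPKM to 9.76, 10.8 and 10.7 in the control and from 5.82, 4.69 and 5.60 to 16.6, 15.4 and 15.8 with shNdufa5_1 (difference 0.29 ± 0.10, limma adjusted p = 0.0411). Col6a1 was enlarged in 20 of 30 settings and kept in the other 10, among them the fit of 12 libraries and those without replicate 2 or 3 of shControl in PCM, replicate 1 of shControl in SCM, replicate 2 of shNdufa5_1 in PCM, or replicate 1 or 3 of shNdufa5_1 in SCM. Il4ra, the interleukin-4 receptor gene, was enlarged at 0.31 and 0.78. Among gained rises, Cd300lb, an activating receptor gene, had 4.94, 4.59 and 4.34 FPKM in shControl PCM, 4.21, 4.16 and 4.57 in SCM, 6.47, 6.28 and 6.58 in shNdufa5_1 PCM and 10.98, 10.3 and 9.96 in shNdufa5_1 SCM. The control libraries of both media overlapped and those of shNdufa5_1 did not, the latter as the naming rule for gained genes required. The scaffold gene Slc9a3r2 was gained at -0.03 and 0.67. Both became reversed with library totals and both equal-sum scales.

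The classes were defined without a contrast of the libraries labelled shNdufa5_2, but these libraries entered the filter and the shared estimate of the spread. With only the 12 other libraries in the fit there were 1256 lost genes, 1142 of them among the 1310. Ndufa5 was not low there in PCM, at 18.7, 17.2 and 16.8 FPKM, and was 14.6, 16.1 and 20.2 in SCM. The medium changed 22.8% of all genes in these libraries (11.7% rose and 11.1% fell), and 23.9% of the 6863 genes called in the control were called the same way. This held for 267 of the 1310 lost genes (20.4%), and 64 were called the opposite way. It held for 69 of the 695 lost rises (9.93%, background 23.7% of control rises) and for 198 of the 615 lost falls (32.2%, background 24.2% of control falls). Of the kept genes 574 of 2468 (23.3%) and of the weakened genes 541 of 1090 (49.6%) were called the same way. Hspa1b had 2.44, 4.05 and 2.79 FPKM in PCM and 4.25, 3.87 and 4.96 in SCM in these libraries, with a response of 0.40 (limma adjusted p = 0.0903). Irf7 had 5.72, 5.45 and 6.03 in PCM and 5.25, 5.95 and 4.44 in SCM. It was thus high in both media there, where the shNdufa5_1 libraries were low in both. Gadd45g (-0.57) and Csf2 (-0.93) fell there, in the control's direction.

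Base composition differed between rises and falls. The median GC content of each gene's longest transcript was 53.1% for lost rises, 54.4% for kept rises, 48.0% for lost falls and 43.0% for kept falls. With each library's trend on GC content and length removed, 52.3% of the lost genes and 34.6% of the kept genes stayed in their class, and 1452 genes were kept. The part of base composition in the responses was not tested beyond this. At the filter, the mean FPKM was 1.0000 for Spa17 and 1.0005 for Hist1h3c inside and 0.9996 for Angpt2 and 0.9988 for Ube2v2 outside. At the threshold, the adjusted p was 0.04996 for Stk19 and Pkn2 inside and 0.05004 for Etv4 and 0.05008 for Dhh outside.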

How the data were processed

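RNA from 18 libraries in 6 groups of 3 was examined, grouped by hairpin and medium from the labels, and 12 libraries entered the comparison. RNA was extracted with Trizol and a column step and made into libraries with the NEBNext Ultra 2 kit, per the labels' protocols. The authors deposited FPKM values for 54532 mouse genes. STAR 2.6.1, DESeq2 and the build GRCm38 come from the submitters' processing notes. How fragments were counted, which gene lengths and denominator gave the FPKM, and whether strand was used is not given in the sources used here. Antisense and near-identical genes are therefore uncertain. GENCODE M21, which gave the coordinates printed here, held 54495 of the identifiers.

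Low values were whole multiples of a step, and 99.5 to 99.8% of values of at most 20 fragments came out whole within 0.1 fragments, which gave 13.8 to 38.9 M fragments per library. Tests used limma 3.58.1 (R 4.3.3) on log2(FPKM + 1), a scale on which changes of low genes appear too small. A single model with 1 coefficient per group and a variance trend was fitted to all 18 libraries, so the spread is shared, and p-values were adjusted by Benjamini-Hochberg over 11084 genes. Promoters came from RefSeq (GRCm38.p6). On simulated data with 200 lost and 200 kept responses of log2 0.5, the classes recovered 51.5% and 74.5%, and at log2 1 they recovered 90% and 89.5%. None of the simulated kept responses was called lost. The simulated noise was normal, all other genes were left unchanged, and kept responses were equal in both genotypes. In the data 61.9% of genes responded in the control. The simulation therefore does not show how often kept responses are called lost in these data.

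Genes named by rule were, per class and direction, those with the largest differences or responses among genes whose libraries did not overlap (8 lost, 6 kept, 6 reversed, 5 gained, 4 weakened and 4 enlarged), and up to 4 called members of each of 33 gene lists with the largest control responses. The members, gene lists and tests were chosen with earlier results of these data known. Lists are described by counts, with no test, and a few members that the rule or the lists hold are not reported here. Alternatives covered the pseudocount, the filter, the scaling, GC content and length, the libraries fitted, the replicate block, the variance trend, the threshold and each library left out. Scaling by library totals and equal sums without Gm23935 were added after seeing the data.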

Additional observations from a re-analysis of the deposited data

Results flagged for a closer look

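The 2 genotypes' responses differed for 2900 of 11084 genes by the limma test of the difference itself. The genes below, with responses called in opposite directions, stood out for the same reason, since each moved 1 way in the control and the other way with shNdufa5_1. Among those that rose in the control, the difference of responses was -1.94 for the chemokine gene Ccl5, -1.14 for Ifit1, -0.85 for Commd1, -0.77 for Kif20b and -0.70 for Ebna1bp2. Among those that fell in the control, it was 1.74 for Csf2, 1.33 for Egr1, 0.86 for Egr3, 0.81 for the MAP kinase phosphatase gene Dusp2, 0.71 for Mettl25, 0.68 for Pced1b, 0.67 for Pak1 and 0.58 for the pyruvate dehydrogenase kinase gene Pdk1. Some of these calls in opposite directions rested on single libraries. Mettl25 kept its class in 17 of 29 settings and was lost without replicate 1 or 2 of shNdufa5_1 in PCM or replicate 1 or 3 of shNdufa5_1 in SCM. Kif20b kept it in 20 of 30 and was gained without replicate 1 or 3 of shControl in either medium. Pced1b kept it in 21 of 29 and was lost without replicate 3 of shNdufa5_1 in PCM or replicate 1 or 3 of shNdufa5_1 in SCM. Dusp2 kept it in 23 of 30 and was lost without replicate 1 of shNdufa5_1 in PCM or replicate 1 or 3 of shNdufa5_1 in SCM. Pdk1 kept it in 25 of 30 and was lost without replicate 3 of shNdufa5_1 in SCM.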

How the results depend on the processing

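Of the differences of responses of genes in the text, recomputed under 29 alternatives, 2354 values kept their direction and side of the threshold, 104 lost the call, 53 gained it and 23 changed sign. With equal FPKM sums, genes called above 0 numbered 6988, below 0 85, lost 4642, kept 737, reversed 312, gained 426, enlarged 22 and lost with a like response in shNdufa5_2 103. With equal sums without Gm23935 they were 4850 above, 472 below, 2473 lost, 2093 weakened, 274 reversed and 714 lost with a like response in shNdufa5_2. With library totals they were 3316 above, 772 below, 2012 lost, 231 reversed and 602 lost with a like response in shNdufa5_2. Quantile normalization gave 988 below and 713 weakened. Removing GC and length trends gave 630 weakened, 1452 kept and 32 enlarged, and no filter gave 36 enlarged. At an adjusted p under 0.01 there were 610 above, 1126 below, 614 weakened, 58 reversed, 103 gained, 14 enlarged and 158 lost with a like response in shNdufa5_2. Differences that turned above 0 with equal sums were Ndufa5 0.23, Aldoc 0.46, Neat1 0.47, Hspa8 0.077, Ccnb2 0.14, Acat2 0.49, Hspe1 0.085, Asns 0.45, Bag3 0.12, Etv4 0.33, Fkbp4 0.21, Hsp90aa1 0.41, Hsph1 0.12, Mthfd2 0.46, Psat1 0.51 and Stk19 0.18. Without Gm23935 these were Ndufa5 0.015, Neat1 0.25, Asns 0.22, Hsp90aa1 0.18, Mthfd2 0.23 and Psat1 0.28. With quantile normalization they were Asns 0.43 and Psat1 0.32, and with library totals Psat1 0.16. Beyond the rescaling itself, the cause was not tested. With 1 library left out, the ranges were 937 to 1187 above, 1493 to 1698 below, 1127 to 1385 lost, 865 to 1083 weakened, 2189 to 2497 kept, 110 to 155 reversed, 197 to 270 gained, 35 to 60 enlarged and 209 to 310 lost with a like response in shNdufa5_2. The enlarged class held 37 genes without shControl PCM replicate 1, 35 without its replicate 2 and 36 without shNdufa5_1 SCM replicate 1. The Ndufa5 difference between genotypes ranged from -1.52 to -1.27 in PCM and from -1.75 to -1.59 in SCM, and its difference of responses from -0.42 to -0.16. Replicate numbers did not pair the samples: 45 same-numbered pairs correlated at -0.09 to 0.06 in their deviations, and 8 of 18 libraries correlated best with their own number. With the replicate block, 1144 genes were above and 1667 below 0, 1265 lost, 1063 weakened, 2443 kept, 143 reversed, 244 gained and 58 enlarged. Depth limits low genes most, and changes under the steps of a few fragments are not resolved.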

Other observations

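Lysosomal genes, which break down material taken up or recycled by the cell, had a difference called below 0 for 16 of 24 tested and above 0 for none (background 15.5% and 10.7%), with 6 lost, 8 weakened, 4 kept and 1 reversed. Over all genes, 11.8% were lost, 9.83% weakened, 22.3% kept and 1.3% reversed. Cd68, a lysosomal membrane glycoprotein gene, rose by 1.28 in the control and had 0.18 with shNdufa5_1. Of 30 genes of G2 and M phase, 16 were called below and 1 above 0, with 7 lost and 7 weakened, and the cyclin gene Ccnb2 rose by 0.77 and 0.36. Of 31 proteasome genes, 16 were below and 4 above 0, with 10 lost and 9 weakened, among them the weakened catalytic subunit gene Psmb6 (0.85 and 0.20). Of 35 mitochondrial ribosomal protein genes, 11 were below and 2 above 0, with 9 lost and 2 weakened, among them the weakened Mrps24 (1.03 and 0.33). Weakened members were thus a smaller share of the mitochondrial ribosomal list than of all genes. The list medians of -0.34, -0.29, -0.17 and -0.17 turned above 0 with equal FPKM sums for all 4, with equal sums without Gm23935 for the last 3 and with library totals for the proteasome and mitochondrial ribosome. Relative to the median of all genes with equal sums (0.46), the 4 medians were -0.25, -0.21, -0.08 and -0.10. The proteasome median also turned above 0 with quantile normalization (0.03).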
